A study of Homo sapiens with 4 samples.

Results

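The genes that encode the chains of collagen and laminin were described in 4 RNA-seq libraries of ovarian cancer cell lines. They were chosen by name, with earlier results of these data known. Taken was every symbol listed for both cell lines that reads COL, a number, A and a number, or LAM, a letter from A to C and a digit. This gave 56 of 26506 genes, of which 44 encode collagen chains and 12 encode laminin chains. HeyC2 and SKOV3 are established human ovarian cancer lines. Cells of each line received 3 μg of a pCMV6 plasmid that carries TET1 (labelled TET1 overexpressed) or the empty plasmid (control, labelled Wild-type) by lipofection, and both were kept in 400 μg/ml Geneticin, so transfection and drug selection were shared by the compared groups. TET1 encodes an enzyme that oxidizes methylated cytosine in DNA, and the comparison asks how its forced expression, from the strong viral promoter of this plasmid, changes transcription. The labels give no time after transfection and do not say whether the selected cells were a pool or a clone. Each of the 4 groups (HeyC2 control, HeyC2 TET1, SKOV3 control and SKOV3 TET1) has 1 library, so no difference has a replicate check within a line, and no test was run.

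Collagens are triple helices of 3 polypeptide chains. Fibrillar collagens form the banded fibrils of connective tissue, collagen IV forms the sheet-like network of basement membranes, collagen VI forms beaded filaments around cells, and FACIT collagens sit on the surface of fibrils. Laminins are cross-shaped trimers of 1 alpha, 1 beta and 1 gamma chain, named by the chain numbers, and they make up the second network of the basement membrane, on which epithelial cells rest. A trimer needs all of its chains, which makes the levels of partner chains in the same cell of interest. Ovarian carcinoma cells secrete such proteins and attach to them through integrins and other receptors.

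Levels are given as FPKM, which relate the fragments of a gene to its transcript length and to library depth and can therefore be compared between genes. The deposited values of each TET1 library carried a constant factor (3.23 for HeyC2, 1.35 for SKOV3) that brings GAPDH to its level in the control. The levels below are FPKM before that step. Changes are log2((A + 1)/(B + 1)) with 1 FPKM as the pseudocount, which understates changes of low genes, minus the median of all genes that passed a filter of a mean of at least 1 FPKM over the compared libraries. This is called the relative change, and a gene was called higher or lower when it reached 2-fold, that is 1 or -1 on the log2 scale. The median subtracted was 0.06 in HeyC2, 0.19 in SKOV3 and 0.27 between the control libraries. On the deposited scale it would be 1.61 in HeyC2 and 0.59 in SKOV3. A plain ratio of FPKM is called a fold here and is given with an exact 95% interval (Clopper-Pearson) from estimated fragment numbers, which covers counting error only.

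The estimated depth was 6660000 to 7320000 fragments per library. TET1 itself was at 0.20 FPKM in the HeyC2 control and 0.52 FPKM in HeyC2 TET1, and at 0.43 and 1.8 FPKM in the SKOV3 libraries, so it was higher in each TET1 library. Its HeyC2 levels lay under the filter, and its relative change in SKOV3 did not reach the 2-fold limit. Across 13088 genes the log2 values of the HeyC2 libraries had a correlation of 0.962, those of the SKOV3 libraries 0.9099, and pairs of different cell lines 0.711 to 0.751. The ovarian lineage marker PAX8 was present at 74.6 to 195 FPKM in all 4 libraries, while WT1 and MUC16 were at 0.53 FPKM or less. In SKOV3 the epithelial keratin KRT7 was at 1537 FPKM in the control and 21.96 in TET1, KRT19 at 255 and 0.46, and KRT8 at 560 and 775. In HeyC2 the endothelial genes TIE1 and CDH5 were at 70.5 and 18.9 FPKM in the control and 108 and 94.6 in TET1, with VWF and PECAM1 at 0.42 FPKM or less.

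Of the 56 members, 22 stayed under 1 FPKM in all 4 libraries. COL10A1, COL22A1, COL6A5, COL6A6 and COL9A1 (5 members) were listed at 0 in all 4 libraries, and a further 17 were above 0 but never over 0.76 FPKM, among them COL3A1, the fibrillar collagen of skin and blood vessels, COL2A1, the cartilage fibril chain, and LAMA1, the alpha chain of the embryonic laminin. At the other end, 11 members were at 10 FPKM or more in every library: COL12A1, COL4A1, COL4A2, COL5A1, COL6A2, LAMA3, LAMA5, LAMB1, LAMB2, LAMB3 and LAMC1. In HeyC2, 21 members of the control and 24 of TET1 were at 1 FPKM or more, and in SKOV3 these were 23 and 29. Together the members held 0.363% and 0.332% of the summed FPKM of the HeyC2 libraries (control, then TET1) and 0.225% and 0.296% of the SKOV3 ones. The balance differed between the lines. In HeyC2, laminin chains summed to 1229 FPKM (control) and 1215 FPKM (TET1) against 522 and 462 FPKM for collagens, whereas in SKOV3 collagens led, with 749 and 887 FPKM against 314 and 462 FPKM for laminins.

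**Figure D1:**
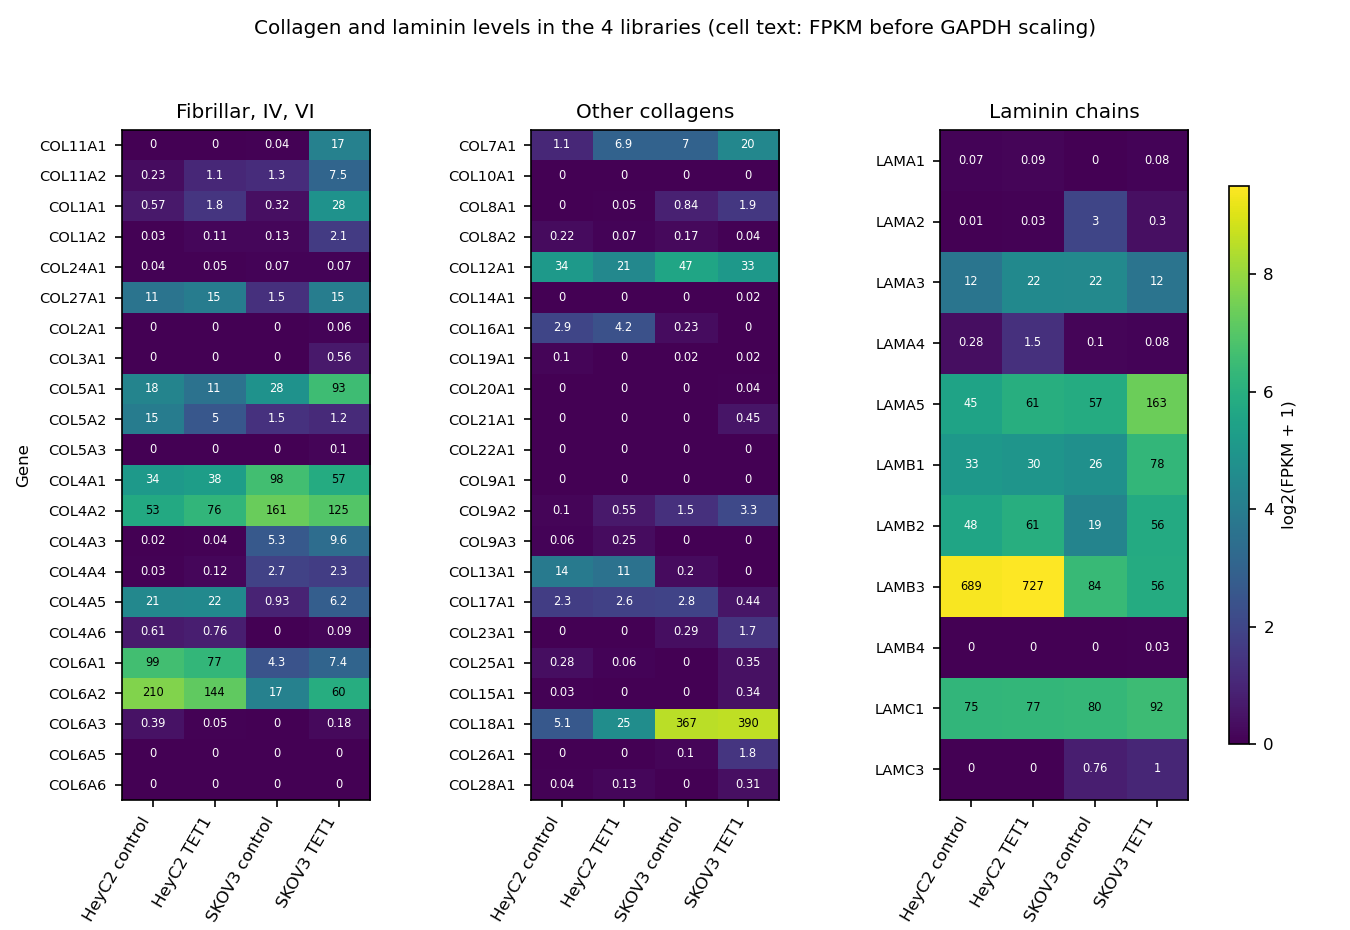
FPKM before the GAPDH scaling for 55 of the 56 collagen and laminin genes (rows, in 3 panels) in the 4 libraries (columns); color is log2(FPKM + 1) and the number in each cell is the FPKM. LAMB3 is the brightest gene in HeyC2, COL18A1 is the brightest in SKOV3, and COL1A1 and COL11A1 are bright in SKOV3 TET1 only among the 4 libraries.

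The start-site sequences of a few members on which the results below turn are shown first, since TET1 acts on methylated cytosine and cytosine is methylated mainly in CpG pairs. Methylation itself was not analysed here. They are the bases just before the annotated start, from RefSeq on GRCh38.p14 (the FPKM were made on hg19), written 5′ to 3′ on the strand of the gene with each CpG in capitals. COL11A1 (chr1:103108523-103108772, minus strand), COL27A1 (chr9:114155287-114155536, plus strand) and LAMB1 (chr7:108003162-108003411, minus strand) were higher in SKOV3 TET1, COL7A1 (chr3:48595330-48595579, minus strand) was higher in both TET1 libraries, and COL17A1 (chr10:104085881-104086130, minus strand) was lower in SKOV3 TET1. COL18A1 has an upstream start (chr21:45404915-45405164, plus strand) and a downstream one (chr21:45455272-45455521, plus strand). The last sequence is the whole stretch between the start sites of COL4A1 and COL4A2 (chr13:110307158-110307283, written on the plus strand), which are transcribed away from each other.
COL11A1: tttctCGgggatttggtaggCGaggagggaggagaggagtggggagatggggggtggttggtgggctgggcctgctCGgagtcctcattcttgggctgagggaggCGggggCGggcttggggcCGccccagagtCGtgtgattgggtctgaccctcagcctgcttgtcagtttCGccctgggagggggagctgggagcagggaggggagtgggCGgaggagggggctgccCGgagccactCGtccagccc
COL27A1: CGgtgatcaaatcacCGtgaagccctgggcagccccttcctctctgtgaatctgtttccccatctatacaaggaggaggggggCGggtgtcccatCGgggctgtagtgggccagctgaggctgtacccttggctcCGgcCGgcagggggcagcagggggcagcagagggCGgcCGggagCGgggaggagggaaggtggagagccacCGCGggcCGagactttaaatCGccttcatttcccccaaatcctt
LAMB1: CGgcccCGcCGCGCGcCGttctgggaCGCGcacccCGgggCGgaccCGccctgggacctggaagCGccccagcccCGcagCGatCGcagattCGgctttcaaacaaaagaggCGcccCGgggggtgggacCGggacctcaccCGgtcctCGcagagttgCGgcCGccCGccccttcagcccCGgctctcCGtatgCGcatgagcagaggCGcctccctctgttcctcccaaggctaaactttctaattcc
COL7A1: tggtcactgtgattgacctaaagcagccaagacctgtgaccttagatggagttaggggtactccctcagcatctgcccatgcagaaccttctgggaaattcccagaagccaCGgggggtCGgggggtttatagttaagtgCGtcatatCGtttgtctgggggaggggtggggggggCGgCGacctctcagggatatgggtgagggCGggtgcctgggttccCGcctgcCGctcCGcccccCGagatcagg
COL17A1: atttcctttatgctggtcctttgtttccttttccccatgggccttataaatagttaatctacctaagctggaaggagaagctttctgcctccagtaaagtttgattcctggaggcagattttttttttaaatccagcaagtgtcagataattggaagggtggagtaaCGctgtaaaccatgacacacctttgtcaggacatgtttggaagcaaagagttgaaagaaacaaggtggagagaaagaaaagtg
COL18A1 upstream: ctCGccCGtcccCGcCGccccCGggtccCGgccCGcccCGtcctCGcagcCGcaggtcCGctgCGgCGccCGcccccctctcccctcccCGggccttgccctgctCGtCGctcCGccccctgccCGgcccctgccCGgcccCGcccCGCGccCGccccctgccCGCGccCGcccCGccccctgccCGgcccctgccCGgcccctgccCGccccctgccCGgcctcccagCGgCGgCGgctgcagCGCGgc
COL18A1 downstream: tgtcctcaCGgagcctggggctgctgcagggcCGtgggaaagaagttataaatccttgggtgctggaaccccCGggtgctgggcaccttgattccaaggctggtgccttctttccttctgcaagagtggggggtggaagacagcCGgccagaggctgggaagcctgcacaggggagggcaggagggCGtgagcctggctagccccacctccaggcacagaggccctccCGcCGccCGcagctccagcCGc
COL4A1 to COL4A2: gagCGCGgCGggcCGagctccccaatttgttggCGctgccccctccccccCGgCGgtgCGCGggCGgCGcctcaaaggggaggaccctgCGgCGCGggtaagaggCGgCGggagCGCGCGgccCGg
The 250 bases before the start held 1 CpG in COL17A1, 11 in COL11A1, 13 in COL27A1, 11 in COL7A1 and 28 in LAMB1. Those of COL4A5, also higher in SKOV3 TET1 and not printed here, held 8. The starts of COL18A1 differed, with 37 CpG upstream and 9 downstream. The FPKM are per gene and do not tell which start was used. The stretch between COL4A1 and COL4A2 held 20 CpG in 126 bases. The other collagen IV genes also lie in opposed pairs, with 419 bases between the start sites of COL4A4 and COL4A3 and 380 bases between those of COL4A6 and COL4A5, or 1416 bases for a second start of COL4A6.

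Of the 56 members, 41 had an entry in the promoter table, which gives 250 bases before and 50 after each start, in 55 windows. Where a gene had several windows, the highest value was used. The ratio of observed to expected CpG had a median of 0.701 over these 41 members and 0.634 over all 27305 genes of the table. It was 0.737 over the 27 members that reached 1 FPKM in any library and 0.535 over the 14 that did not. Among the members called in SKOV3 TET1, the 10 higher ones with an entry had a median of 0.685, and the 3 lower ones (COL17A1, LAMA2 and LAMA3) had 0.437. COL1A1 and COL1A2, also higher there, had no entry. The letters GGGCGG, searched on both strands, stood in 65.9% of the members and 48.3% of all genes. TATAAA, also on both strands, stood in 17.1% and 14.0%, and TGACTCA, searched likewise, in 4.88% and 6.05%. These are matches of letters and describe no binding.

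The first comparison set the SKOV3 control against the HeyC2 control and asks how the matrix genes of the lines differ without the TET1 plasmid. SKOV3 had far more COL18A1 and more COL4A1 and COL4A2, and HeyC2 had far more COL4A5, collagen VI and LAMB3. Of the 24 members that passed the filter, 7 were higher in SKOV3, against 17.8% of the 12488 genes tested, and 10 were lower, against 18.6%. Among the called members, COL4A3, COL4A4 and LAMA2 were under 1 FPKM in HeyC2, and COL13A1, COL16A1 and COL4A5 in SKOV3. These passed the filter only through the other line and could not have been called in the other direction. The median relative difference of the members was -0.12. These control libraries also enter the comparisons with TET1 below.

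COL18A1 encodes the basement membrane collagen whose end fragment is endostatin. It was at 5.11 FPKM in the HeyC2 control and 367 FPKM in the SKOV3 control, 71.8-fold apart (interval 62.3 to 83.0), and with a relative difference of 5.65 it stood farther above the all-gene median than any other member. The gene spans 46825080 to 46933634 on chromosome 21 of GRCh37, on the plus strand.

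Of the collagen IV genes, COL4A1 and COL4A2, which encode the chains of the common network, were both higher in SKOV3. COL4A1 was at 33.6 and 97.9 FPKM in the HeyC2 and SKOV3 controls, and COL4A2 at 53.2 and 161 FPKM, 2.91-fold (interval 2.75 to 3.09) and 3.03-fold (interval 2.90 to 3.18) higher. COL4A2 exceeded COL4A1 by 1.58 to 2.18 times in all 4 libraries, although the trimer has 2 alpha 1 chains for 1 alpha 2 chain. The annotated spans of these genes on chromosome 13 overlap at their starts, and the library kit is not stated to mark strand. COL4A3 and COL4A4 encode chains of the network found in kidney and lung. COL4A3 was at 0.02 and 5.28 FPKM, or about 1 and 300 fragments, and COL4A4 at 0.03 and 2.70 FPKM, or about 2 and 192 fragments, so both were nearly absent from HeyC2. COL4A5, which supplies the third chain of that network, went the other way, with 20.9 FPKM in HeyC2 and 0.93 in SKOV3, 22.5-fold lower in SKOV3.

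The genes of collagen VI were higher in HeyC2. COL6A1 was at 98.7 and 4.34 FPKM and COL6A2 at 210 and 16.9 FPKM in the HeyC2 and SKOV3 controls, which made COL6A1 22.7-fold and COL6A2 12.4-fold lower in SKOV3. Both lie next to each other on the long arm of chromosome 21. COL6A3, which encodes their usual partner chain, was at 0.39 FPKM or less in all 4 libraries, and its alternates COL6A5 and COL6A6 were listed at 0. Other collagens lower in SKOV3 were COL13A1, a transmembrane collagen of cell adhesions (13.9 and 0.20 FPKM), COL5A2 (15.1 and 1.54 FPKM), COL27A1 (11.5 and 1.51 FPKM) and the fibril-associated COL16A1 (2.93 and 0.23 FPKM). COL7A1, which encodes the anchoring fibrils that tie epithelial basement membranes to the tissue below, was higher in SKOV3, at 1.06 and 7.03 FPKM.

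LAMA3 and LAMB3 encode an alpha and a beta chain of the laminin of epithelial attachment sites. LAMB3 was at 689 FPKM in the HeyC2 control and 83.9 in the SKOV3 control, 8.21-fold lower. LAMA3, whose product binds the integrins, did not follow, at 12 and 21.5 FPKM with a relative difference of 0.53. In HeyC2 the mRNA of the beta chain was therefore far above that of the alpha chain, with LAMB3 57.4 times LAMA3, while in SKOV3 it was 3.90 times. The chains of laminin-511 lay closer together: LAMA5 was at 44.6 and 57.2 FPKM, LAMB1 at 32.5 and 26.4 and LAMC1 at 75.5 and 80.4, and none of these was called. LAMB2, which replaces LAMB1 in laminin-521, was lower in SKOV3, at 47.6 and 18.5 FPKM. LAMA2, the muscle laminin alpha chain, was at 0.01 FPKM (about 1 fragment) for HeyC2 and 2.95 FPKM (about 203 fragments) in SKOV3, and was higher there. At a pseudocount of 5 the differences of COL4A3 (0.85), COL4A4 (0.43), COL7A1 (0.81), COL16A1 (-0.78) and LAMA2 (0.49) were under the limit.

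**Figure D2:**
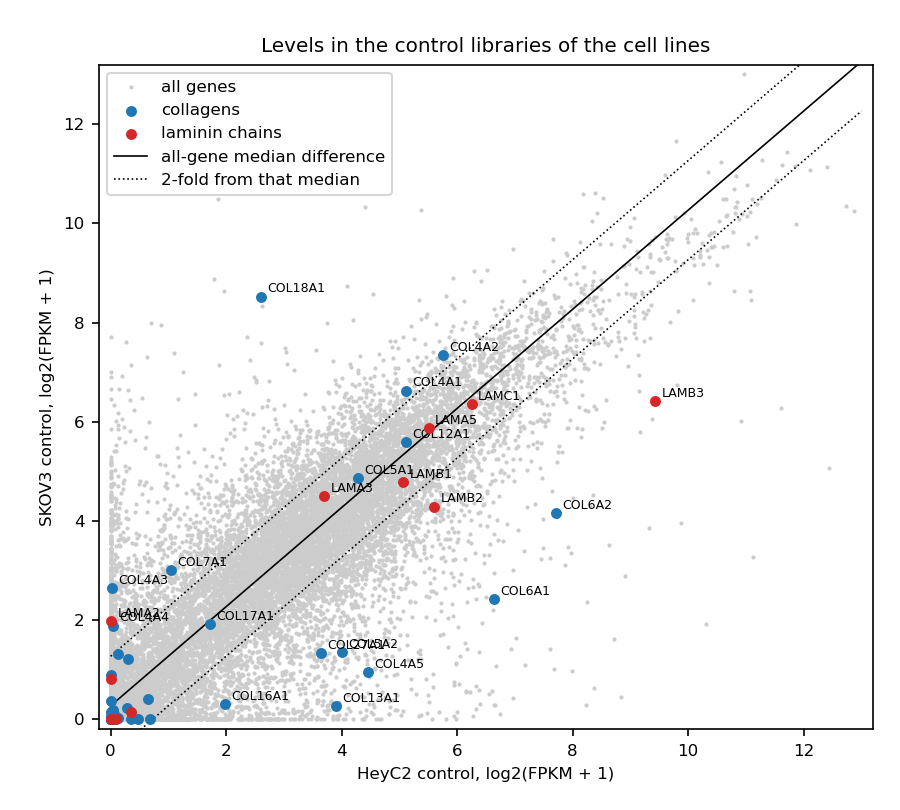
Level in the SKOV3 control against level in the HeyC2 control, both as log2(FPKM + 1), for all genes (gray), collagens (blue) and laminin chains (red); the solid line is the median difference of all genes, and dotted lines are 2-fold from it. COL18A1 lies far above the lines, and LAMB3, COL6A1 and COL6A2 lie far below them at high HeyC2 levels.

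The comparison of HeyC2 TET1 with its control asks how the members changed with TET1 in this line, and most stayed within 2-fold of the all-gene median. Of the 22 members that passed the filter, 2 were higher (COL18A1 and COL7A1), against 4.11% of 11896 genes, and 1 was lower (COL5A2), against 2.83%. The median relative change was 0.04. Over all genes, 59.2% of the calls were higher ones, and 47.1% on the deposited scale.

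COL18A1 was at 5.11 FPKM in the control and 24.6 FPKM in HeyC2 TET1, 4.82-fold higher (interval 4.11 to 5.64), with a relative change of 2.01. The TET1 level was still far under either SKOV3 library. COL7A1 was at 1.06 and 6.90 FPKM, about 70 and 417 fragments, 6.51-fold higher (interval 5.08 to 8.57), with a relative change of 1.88. At a pseudocount of 5 the COL7A1 value was 0.93, under the limit. COL5A2, which encodes the second chain of collagen V, a regulator of fibril diameter, was at 15.1 and 4.99 FPKM, 3.03-fold lower (fold 0.33, interval 0.28 to 0.38), with a relative change of -1.49. Its partner COL5A1 was at 18.4 and 11 FPKM, with a relative change of -0.75, so COL5A1 went from 1.22 to 2.204 times COL5A2.

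The 4 fibrillar genes that passed had a median of -0.22, which became 0.26 on the deposited scale and 0.30 as TPM, so their direction as a class was not stable. COL1A1, the main chain of collagen I, was at 0.57 and 1.76 FPKM, about 24 and 67 fragments, with a relative change of 0.76 that passed the limit at a pseudocount of 0.1 (1.41) and as TPM (1.03). COL1A2, the other chain of collagen I, was at 0.03 and 0.11 FPKM. COL6A1 was at 98.7 and 77.1 FPKM and COL6A2 at 210 and 144 FPKM, with relative changes of -0.41 and -0.60. The collagen IV genes that passed lay between -0.01 (COL4A5) and 0.44 (COL4A2). COL12A1, a FACIT collagen, was at 33.5 and 20.6 FPKM, with -0.73.

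None of the 7 laminin chains that passed was called in HeyC2, where only 4.11% of all genes were higher and 2.83% lower. The median of these chains was 0.02. On the deposited scale the median was 0.29. LAMB3, at 689 FPKM in the control and 727 in TET1, and LAMC1, at 75.5 and 77.5 FPKM, had relative changes of 0.02 and -0.02. Of the chains that passed, the one that went up most was LAMA3, at 12 and 21.9 FPKM, with 0.76. The excess of LAMB3 mRNA over LAMA3 was thereby 33.2 times in HeyC2 TET1, against 57.4 times in the control. LAMA4 did not pass the filter and was at 0.28 and 1.48 FPKM.

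The comparison of SKOV3 TET1 with its control asks the same in the second line, and there most fibrillar collagens that passed were higher, as were LAMA5, LAMB1 and LAMB2, while LAMA2 and LAMA3 were lower. Of the 28 members that passed, 12 were higher, against 10.1% of 13016 genes, and 4 were lower, against 6.49%. Among the called members, COL1A1, COL1A2, COL11A1 and COL4A5 were under 1 FPKM in the control, and COL17A1 and LAMA2 in TET1. These passed the filter only through the other library and could not have been called in the other direction. The median relative change of the members was 0.51. Without the filter on low values it was 0.02, over the members that were above 0 in either library. Over all genes, 61.0% of the calls were higher ones, 76.4% with upper-quartile scaling and 50.1% with a pseudocount of 5.

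Of the 11 fibrillar collagen genes, 7 passed the filter and 6 of these were higher, against 10.1% of all genes, with a median of 1.68. COL1A1, COL1A2 and COL11A1 passed the filter only through their TET1 level, so they could lie only above the all-gene median. COL1A1 was at 0.32 FPKM in the SKOV3 control, about 13 fragments, and 27.7 FPKM in SKOV3 TET1, about 1072 fragments. This is 86.4-fold (interval 51.5 to 167), and no other member had a larger relative change, at 4.25. COL1A2 was at 0.13 and 2.12 FPKM, about 5 and 70 fragments, and COL1A1 was 2.46 times COL1A2 in the control and 13.05 times in TET1. The COL1A2 value of 1.27 was 0.34 at a pseudocount of 5. COL11A1 encodes a chain of collagen XI, which nucleates fibrils and is best known from cartilage. It was listed at 0 in both HeyC2 libraries, at 0.04 FPKM in the control of SKOV3 (about 2 fragments) and at 17.3 FPKM in its TET1 library (about 835 fragments), a ratio of 433 with an interval of 123 to 3698. COL11A2, another chain of collagen XI, was at 1.32 and 7.52 FPKM, with a relative change of 1.68. COL27A1, a fibrillar collagen of developing cartilage, was at 1.51 and 15.5 FPKM, 10.3-fold higher (interval 8.21 to 13.1), and so reached the HeyC2 TET1 level of 15.0 FPKM. COL5A1 was already abundant and was at 28.1 and 93.2 FPKM, 3.32-fold higher (interval 3.14 to 3.51). Its partner COL5A2 was the one fibrillar gene that passed and was not called, at 1.54 and 1.18 FPKM with -0.41, and COL5A1 exceeded it 18.2 times in the control and 79.0 times in TET1.

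Because the RNA came from whole cultures, a change in the number of cells of a kind and a change in RNA per cell cannot be told apart. Fibroblasts are a major source of COL1A1 and COL1A2, and the markers of that cell type other than collagens were low. Over DCN, LUM, PDGFRA, PDGFRB, FAP, THY1 and POSTN (7 genes) the summed level was 1.48 FPKM in the SKOV3 control and 5.65 FPKM in SKOV3 TET1, of which LUM made up 4.32. DCN, PDGFRB and FAP (3 of the 7) were at 0 in SKOV3 TET1. In HeyC2 the sum was 8 FPKM in the control and 6.01 in TET1, mostly FAP. COL3A1, a companion of collagen I in fibroblasts, was at 0.56 FPKM in SKOV3 TET1 and listed at 0 in the other libraries. KRT7, KRT19 and MSLN (10.3 and 0.08 FPKM) were lower in SKOV3 TET1 than in its control. KRT8, KRT18 (193 and 255 FPKM), EPCAM (15.4 and 16.1 FPKM) and PAX8 were not lower there. In HeyC2, KRT7 was higher in TET1, at 290 and 1125 FPKM. The part of these genes in the result was not tested.

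Outside the fibrillar class, COL4A5 was at 0.93 and 6.2 FPKM in the SKOV3 control and TET1 libraries, 6.67-fold higher (interval 4.79 to 9.37). The other collagen IV genes were not called: COL4A1 was at 97.9 and 57.4 FPKM, with -0.95, just inside the limit, COL4A2 at 161 and 125 FPKM, with -0.56, COL4A3 at 5.28 and 9.58, with 0.56, and COL4A4 at 2.70 and 2.32, with -0.35. With COL4A5 higher, the chains that make the kidney and lung network lay between 2.32 and 9.58 FPKM in SKOV3 TET1. COL6A2 was at 16.9 and 60.3 FPKM, 3.57-fold higher (interval 3.19 to 4.01), whereas its neighbor COL6A1 was at 4.34 and 7.44 FPKM, with 0.47, and the excess of COL6A2 over COL6A1 was 3.89 times in the control and 8.11 times in TET1. COL7A1 was at 7.03 and 20.2 FPKM, 2.87-fold higher (interval 2.58 to 3.20), with a relative change of 1.21 that was 0.88 after correction for transcript length and GC content. COL17A1 encodes the transmembrane collagen of hemidesmosomes, the junctions that fix epithelial cells to the basement membrane. It was at 2.77 and 0.44 FPKM, about 109 and 16 fragments, and was lower, with -1.58. COL18A1, the most abundant member in both SKOV3 libraries, was at 367 and 390 FPKM, with -0.11. COL12A1 was at 47.0 and 32.6 FPKM, with -0.70, close to its HeyC2 value.

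The laminin chains of SKOV3 did not move together. Of the 8 that passed, 3 were higher, against 10.1% of all genes, and 3 were lower, against 6.49%. The median of these chains was -0.38, which was 0.09 over chains with a mean of at least 5 FPKM. LAMA5, LAMB1 and LAMB2, which belong to laminin-511 and laminin-521, were the higher ones: LAMA5 was at 57.2 FPKM in the control and 163 in TET1, 2.84-fold higher (interval 2.75 to 2.94), LAMB1 at 26.4 and 77.7 FPKM, 2.94-fold (interval 2.74 to 3.16), and LAMB2 at 18.5 and 55.5 FPKM, 3.00-fold (interval 2.75 to 3.26). Their common partner LAMC1 was at 80.4 and 91.6 FPKM, with -0.01. LAMA5 thus exceeded LAMC1 in SKOV3 TET1 and lay under it in the other 3 libraries. LAMA3 was at 21.5 and 11.5 FPKM, with -1.04, just past the limit, and it was -0.86 with upper-quartile scaling and -0.94 when a mean of 5 FPKM was required. LAMB3 was at 83.9 and 56.2 FPKM, with -0.76. LAMA2 was at 2.95 and 0.30 FPKM, about 203 and 19 fragments, and was also lower, with -1.80. A transcript antisense to LAMA5, LAMA5-AS1, was at 1.07 FPKM in the SKOV3 control and 0 in the other libraries, and transcripts antisense to COL18A1 and COL4A2 were at 0.76 FPKM or less, far below these genes. Without strand, reads from a gene and its antisense partner cannot be told apart.

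**Figure D3:**
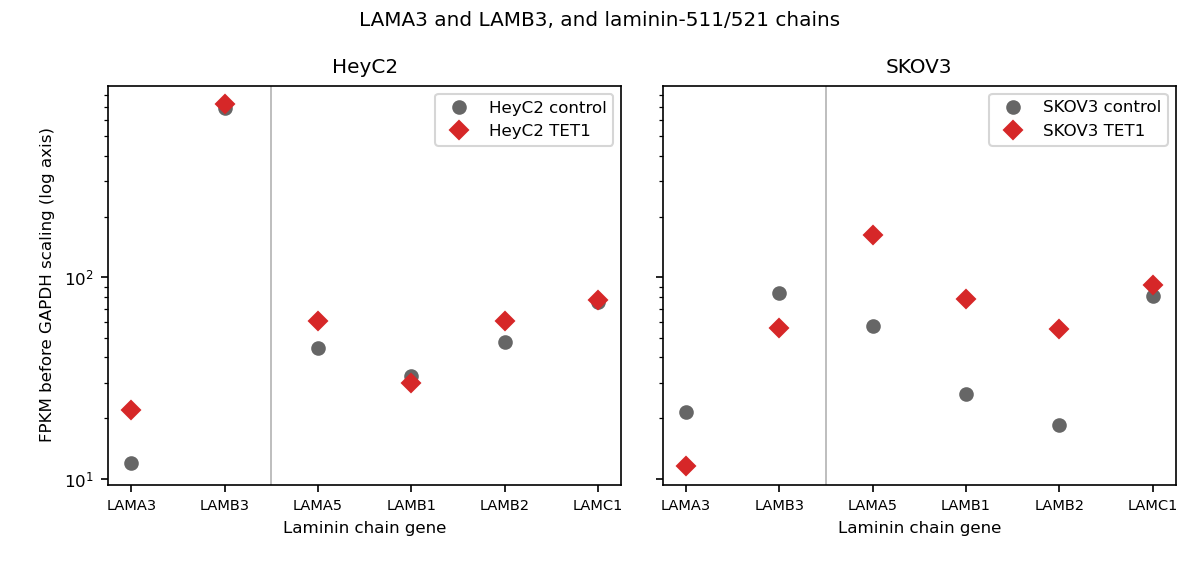
FPKM before the GAPDH scaling (log axis) of LAMA3 and LAMB3 (left of the gray line) and of the chains of laminin-511 and laminin-521 (right of it) in the control (gray circles) and TET1 (red diamonds) libraries of each line. In SKOV3 the TET1 points of LAMA5, LAMB1 and LAMB2 lie above the control points, and those of LAMA3 and LAMB3 below them, while in HeyC2 the points of each chain lie within 2-fold of each other.

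Set side by side, the lines shared few calls, among the members as among all genes. The members that passed in both are too few to tell these shares apart. Of the 20 members that passed the filter in both, 1, COL7A1, was higher in both TET1 libraries, against 0.745% of 11136 genes, and 0 were lower in both, against 0.7%. None was higher in one line and lower in the other by the 2-fold limit, against 0.332% for higher in HeyC2 and lower in SKOV3 and 0.242% for the reverse. Across these 20 members, which are genes of the same libraries and not replicates, the relative changes in the lines had a Spearman rho of 0.03, and across all 11136 genes it was 0.15. COL1A1 was higher in TET1 than in control in both lines, from a low level in each (0.57 to 1.76 FPKM and 0.32 to 27.7 FPKM), and with a pseudocount of 1 FPKM it passed the limit in SKOV3 and not in HeyC2. COL18A1 was higher in HeyC2 TET1, where its control level was low, and was not called in SKOV3, where its control level was high. COL27A1 was the reverse case, higher in SKOV3 TET1, where its control level was 1.51 FPKM, and at 11.5 and 15.0 FPKM in HeyC2. These are single genes, the control level is part of the change itself, and no link between level and change was tested. COL5A1 was higher in SKOV3 TET1, where its control level was 28.1 FPKM, against 18.4 FPKM in the HeyC2 control. COL5A2 and COL6A1 had lower control levels in SKOV3 (1.54 and 4.34 FPKM) than in HeyC2 (15.1 and 98.7 FPKM) and were not called in SKOV3. The differences between the lines were not tested. At a pseudocount of 5 the SKOV3 values of several members with low levels lay under the 2-fold limit, namely COL11A2 (0.86), COL4A5 (0.79), COL7A1 (0.94), COL17A1 (-0.64), LAMA2 (-0.72) and LAMA3 (-0.81).

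**Figure D4:**
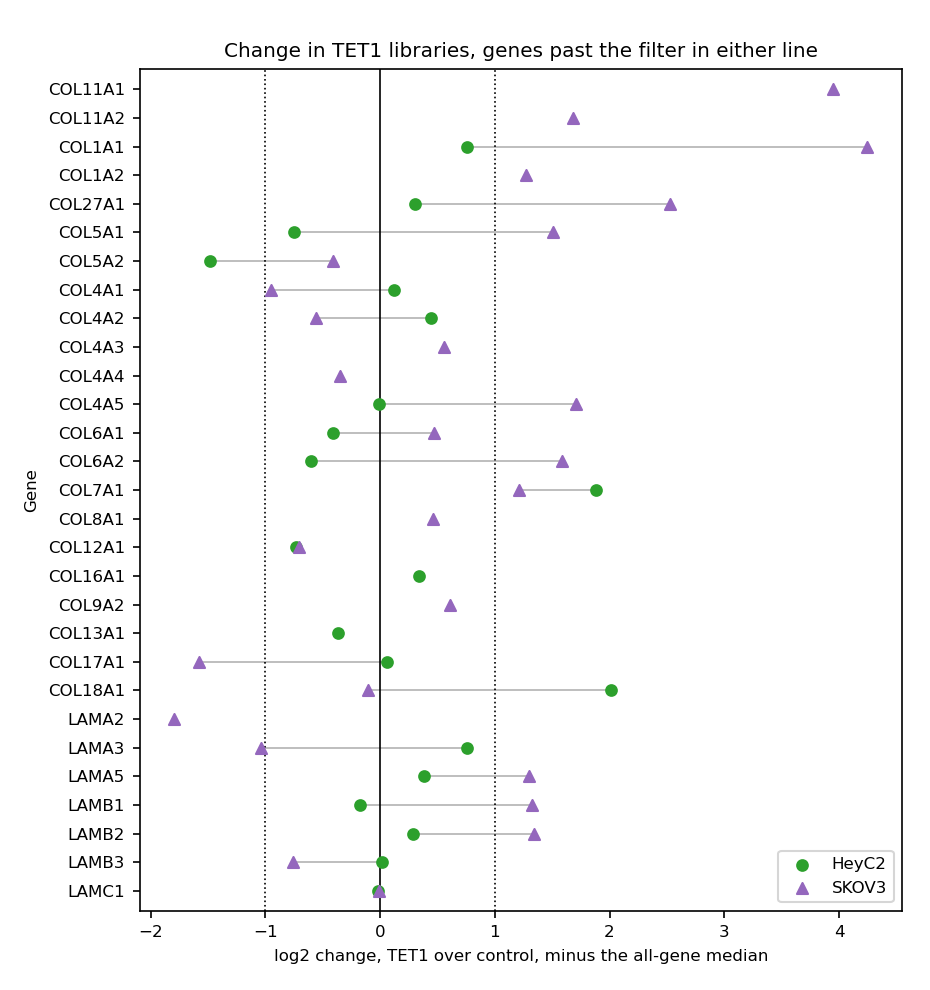
Relative change, the log2 change of TET1 over control minus the all-gene median, for members that passed the filter in either line, in HeyC2 (green circles) and SKOV3 (purple triangles); gray lines join the values of a gene and dotted lines mark 2-fold. COL1A1 and COL11A1 lie farthest right in SKOV3, COL18A1 and COL7A1 farthest right in HeyC2, and LAMA2, in SKOV3, farthest left.

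Genes that act on collagens and laminins were taken from 4 lists written by hand with earlier results of these data known, and most were not called. Among the called genes of these lists, P4HA3, PCOLCE, ADAMTS2 and NID1 were under 1 FPKM in the SKOV3 control, and ITGA10 in the HeyC2 control. LOXL4 and SMOC2 were under 1 FPKM in SKOV3 TET1. These genes passed the filter only through the other library and could not have been called in the other direction. The first list holds 19 enzymes and chaperones that hydroxylate, glycosylate and fold collagen chains in the endoplasmic reticulum. Of the 17 that passed in each line, 2 (11.8%) were higher in HeyC2 TET1, against 4.11% of all genes, and 2 (11.8%) in SKOV3 TET1, against 10.1%, and 0 were lower in either. P3H4, a partner of the lysine hydroxylation complex, was among them in both lines, at 18.6 and 42.8 FPKM in HeyC2 and 12.6 and 34.7 in SKOV3. P3H2, a proline 3-hydroxylase, was higher in HeyC2 (39.0 and 121 FPKM), and P4HA3, a catalytic subunit of proline 4-hydroxylase, in SKOV3 (0.33 and 3.03 FPKM). The median of the list was 0.17 in HeyC2 and 0.21 in SKOV3.

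The second list holds 20 genes of procollagen export, cleavage and crosslinking, of which 15 passed in each line. In HeyC2 only BMP1, the protease that removes the C-terminal propeptide, was higher, at 9.89 and 26.7 FPKM (6.67% of the list, against 4.11% of all genes), and none was lower. SKOV3 had 3 higher genes (20% of the list, against 10.1%): PCOLCE, the enhancer of that protease (0.19 and 5.28 FPKM), ADAMTS2, which removes the N-terminal propeptide of fibrillar procollagens (0.32 and 11.96 FPKM), and LOXL1, a crosslinking oxidase (23.0 and 69.9 FPKM). LOXL4, another oxidase of that family, was lower in SKOV3, at 3.39 and 0.52 FPKM, which is 6.67% of the list against 6.49% of all genes. These genes had a median of 0.01 for HeyC2 and 0.41 for SKOV3, of which the latter was -0.06 as TPM.

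Of the 17 other basement membrane genes, 10 passed in HeyC2 and 13 in SKOV3. NID1 and NID2 encode the nidogens that join the laminin and collagen IV networks. NID2 was higher in HeyC2 TET1 (1.22 and 7.67 FPKM) and lower in SKOV3 TET1 (43.4 and 17.1 FPKM), where NID1 was higher (0.20 and 8.57 FPKM). SPARC, a collagen-binding protein, was at 9.27 and 144 FPKM in SKOV3, and FBLN2, a fibulin that binds laminin and nidogen, at 5.99 and 109 FPKM. These had relative changes of 3.63 and 3.79. SMOC1 was higher in HeyC2 (6.64 and 31.9 FPKM) and SMOC2 lower in SKOV3 (7.97 and 0 FPKM). In counts, HeyC2 TET1 had 2 higher genes of this list (20%, against 4.11% of all genes) and 0 lower ones (against 2.83%), and SKOV3 TET1 had 3 higher (23.1%, against 10.1%) and 2 lower ones (15.4%, against 6.49%), with medians of 0.31 and -0.02.

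The receptors, 20 genes of which 16 passed in each line, had 5 higher (31.3%, against 4.11% of all genes) and 0 lower (against 2.83%) in HeyC2 TET1, with a median of 0.05. In SKOV3 TET1, 4 were higher (25%, against 10.1%) and 2 lower (12.5%, against 6.49%), with a median of -0.39. BCAM, MCAM and MRC2 were higher in both lines, as were 0.745% of all genes that passed in both. BCAM, a receptor for LAMA5, was at 2.81 and 10.98 FPKM in HeyC2 and 42.7 and 172 FPKM in SKOV3. MCAM, a receptor for laminin with alpha 4 chains, was at 7.32 and 23.1 FPKM and at 2.23 and 14.4 FPKM, and MRC2, which takes up collagen for degradation, at 12.3 and 35.9 FPKM and at 25.1 and 160 FPKM. ITGA10 and LAIR1, both collagen receptors, were higher in HeyC2, at 0.67 and 2.74 FPKM and at 3.09 and 8.41 FPKM. ITGA7, a laminin-binding integrin chain, was higher in SKOV3 (1.10 and 12.4 FPKM). ITGA6, an integrin chain that binds laminin in hemidesmosomes, and the proteoglycan SDC1 were lower there, at 46.2 and 23.3 FPKM and at 117 and 64.2 FPKM.

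**Figure D5:**
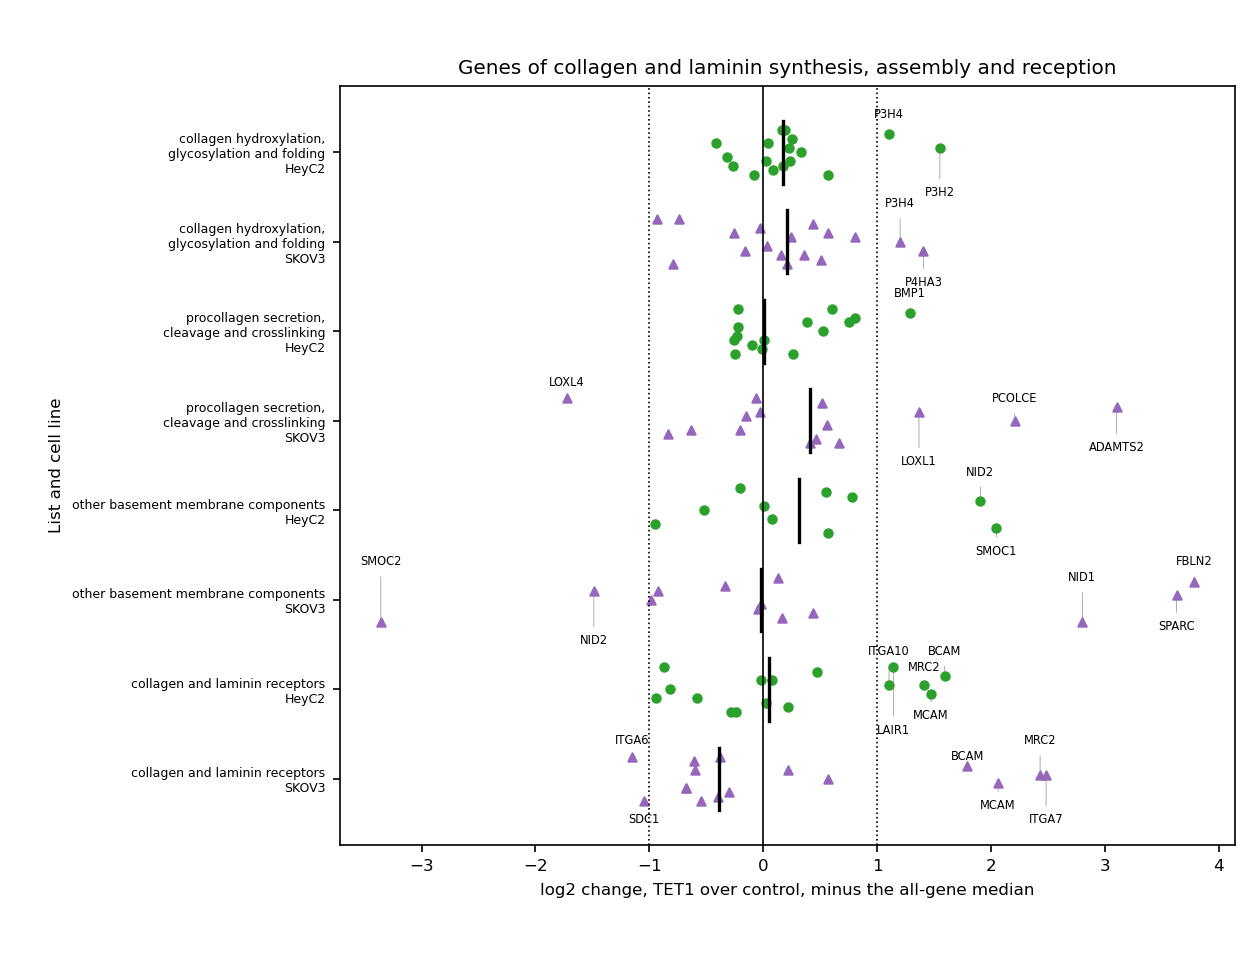
Relative change of the genes of the 4 partner lists that passed the filter, in HeyC2 (green circles) and SKOV3 (purple triangles), with the list's median as a black bar and 2-fold limits dotted; genes past a limit are named, and the vertical offset within a row carries no meaning. Most genes lie inside the limits, and FBLN2, SPARC, ADAMTS2 and NID1 lie farthest right in SKOV3.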

How the data were processed

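RNA from 4 cultures (HeyC2 and SKOV3, control and TET1) was sequenced once each, as paired reads of 150 bp. Per the labels, the authors aligned reads to hg19 with Bowtie2 2.2.6 and quantified them with RSEM 1.2.17. The deposited values are FPKM, in a table per cell line of 26506 symbols. The annotation used is not given in the sources used here. The deposited TET1 columns carry a constant that sets GAPDH to its control value. It was recovered from the value steps of 0.01 FPKM and divided out (100% of distinct values under 40 FPKM then lay on that grid), because a pseudocount added after such scaling treats low genes of the libraries unequally. Deposited values were kept as an alternative.

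From these FPKM, log2 changes with a pseudocount of 1 were centered on the median of all genes with a mean of at least 1 FPKM over the compared libraries. Genes 2-fold from it were called. A gene far under 1 FPKM in 1 library passes this filter only through the other library, which sets the side of the median on which it lies. With 1 library per group, no test within a line can be had, and none over both lines was run. Depth was estimated from the steps of low values, and fragment numbers from depth and the length of the canonical GENCODE transcript on GRCh37, the build of hg19. Of the symbols, 23813 (89.8%) matched that annotation. These fragment numbers are approximate and their intervals cover counting error only.

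All members were counted by class. Members at 10 FPKM or more in any library, or called in any comparison, were described in full, and for each partner list up to 3 called genes per direction and line were to be named. LAIR1 and ITGA10 in HeyC2 and BCAM in SKOV3 fell outside that number and were named after their values were seen. The values of 1 member are not reported here, though counts, sums and medians include it. The members and lists were chosen with earlier results of these data known. Other pseudocounts, filters, scales, centers and limits were tried, as was a correction for transcript length and GC content in 20 bins each. The calculations were tested on simulated data. Python 3.11.15 with numpy 2.4.6, pandas 2.3.3, scipy 1.17.1 and matplotlib 3.10.9 was used.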

Additional observations from a re-analysis of the deposited data

Results flagged for a closer look

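For 3 members the relative change had opposite signs in the cell lines, with at least 1.5-fold in each. COL5A1 had -0.75 in HeyC2 and 1.503 in SKOV3, from 18.4 to 11 FPKM and from 28.1 to 93.2 FPKM. COL6A2 had -0.60 in HeyC2 and 1.58 in SKOV3, from 210 to 144 FPKM and from 16.9 to 60.3 FPKM. LAMA3 had 0.76 in HeyC2 and -1.04 in SKOV3, from 12 to 21.9 FPKM and from 21.5 to 11.5 FPKM. With 1 library per group, none of these differences was tested.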

How the results depend on the processing

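A fit with the cell line as the pairing was left out, since it would rest on 2 pairs, and the labels carry no replicate numbers. Each result was computed under 6 to 10 alternatives. Of the values for single genes, 514 kept their side of the limit, 16 fell under the 2-fold limit, 2 passed it and 3 moved. No called value reversed its direction. Values that were not called counted as kept when they shifted by less than 0.25, whatever their sign. Some of these changed sign, such as COL17A1 in HeyC2 (0.06, and -0.11 on the deposited scale). Sizes still changed with the pseudocount, as for COL11A1 in SKOV3, at 3.95 in the report and 6.75 with a pseudocount of 0.1. In HeyC2 the number of higher members (2 in the report) was 1 with a pseudocount of 5, 1 with a mean of at least 5 FPKM, 5 as TPM and 4 at 1.5-fold, and the number of lower members (1) was 4 at 1.5-fold and 0 at 3-fold. In SKOV3 the 12 higher members were 5 at 3-fold. The 4 lower ones were 1 with a pseudocount of 5, 1 with a mean of at least 5 FPKM, 7 at 1.5-fold and 2 at 3-fold. Between the controls, the 7 members higher in SKOV3 were 3 with a pseudocount of 5, 3 with a mean of at least 5 FPKM and 4 at 3-fold, and the median of -0.12 was -1.07 with a mean of at least 5 FPKM. The SKOV3 TET1 median of 0.51 was 0.26 with a pseudocount of 5 and 0.017 without the filter. The fibrillar median in HeyC2 (-0.22) was 0.047 without the filter, -0.74 with a mean of at least 5 FPKM, 0.26 as deposited and 0.30 as TPM, and in SKOV3 (1.68) it was 3.06 with a pseudocount of 0.1, 1.29 without the filter and 3.33 with a mean of at least 5 FPKM. The laminin median was 0.29 as deposited in HeyC2, and in SKOV3 -0.095 without the filter, 0.088 with a mean of at least 5 FPKM and -0.040 as TPM. The other basement membrane genes of HeyC2 had 0.025 with a mean of at least 5 FPKM. The export and crosslinking genes of SKOV3 had 0.15 with a pseudocount of 5, -0.0047 without the filter and -0.058 as TPM. Filters and limits change the genes counted by construction. The TPM setting multiplies the FPKM of each library by a constant that raises them, so the filter and the pseudocount act at lower FPKM there. The cause of the other changes was not tested. Depth limits members near 1 FPKM most, such as COL1A2, with about 5 fragments in the SKOV3 control.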

Other observations

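The members that stayed under 10 FPKM and outside every call were listed above 0 more often in SKOV3 TET1 than in the other libraries. Over all 56 members, 8 were at 0 there, against 19 in the SKOV3 control, 17 in the HeyC2 control and 18 in HeyC2 TET1. Over all 26506 genes, SKOV3 TET1 also had the most above 0, with 16941 against 16149, 15162 and 15574 in the same order. Among them, COL26A1 was at 0.10 FPKM in the control of SKOV3 and 1.78 in its TET1 library, COL23A1, a transmembrane collagen, at 0.29 and 1.66 FPKM, and COL21A1, a FACIT collagen, at 0 and 0.45 FPKM. COL9A2, a chain of the cartilage FACIT collagen IX, was at 1.48 and 3.33 FPKM, with a relative change of 0.61, and COL8A1, a network collagen of vessel walls and cornea, at 0.84 and 1.89 FPKM, with 0.46. LAMC3 was at 0.76 and 1.01 FPKM. COL9A3 was at 0 in both SKOV3 libraries and at 0.06 and 0.25 FPKM in the HeyC2 libraries, and COL4A6 reached 0.61 and 0.76 FPKM in HeyC2 and 0 and 0.09 FPKM in SKOV3. Most of these levels rest on few fragments.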
